A study of Homo sapiens with 10 samples.

Results

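The proximal short arm of human chromosome 19 holds a dense block of Krüppel-associated box (KRAB) zinc-finger genes around band 19p12. The 34 genes described here are those named as members of this block, and all 34 had a row among the 33551 rows of the deposited count table. They were chosen by position and by expression: 2 windows of chromosome 19 had looked shifted in 1 of the study's cell lines, E690K, so the measured values that chose them are those of E690K against wild type. That comparison is given as a description, with no test. The members lie between 19668796 and 24129961 on chromosome 19 in GRCh38, as annotated by GENCODE release 29. Of the 34, 16 had enough counts to pass the filter on low counts and enter the tests, and 18 did not.

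RNA sequencing was done on A549, an established human lung adenocarcinoma line. There were 5 lines by genotype: ABCA3 wild type (WT), ABCA3 knockout by its label (KO), and the ABCA3 variants L101P, E292V and E690K. ABCA3 is the lipid transporter of the lamellar bodies of alveolar type 2 cells. Each line was sampled untreated and after a night with LV-ABCA3:GFP, a lentiviral vector with a VSVG envelope that carries an ABCA3:GFP fusion (multiplicity of infection 20). This gave 10 libraries, with 1 for each line and treatment. Each genotype is 1 line, and the labels do not say whether a line was grown from a single cell. A line's 2 libraries are therefore the only repeat of its genotype. A p-value sets a line or vector difference against the scatter of these libraries around additive effects of line and vector. Total counts ran from 59430095 to 96811421 per library. The targeted gene went against its label in the KO pair: ABCA3 had 601 CPM (the count scaled by the library's total) in the library labelled KO untreated and 25.8 CPM in the library labelled KO transduced, and the vector's EGFP sequence had 37.9 and 0.0492 CPM. EGFP counts were also present in the other untreated libraries, at 1.01 to 70.9 CPM. Untreated first and transduced second, EGFP had 70.9 and 153 CPM in WT and 1.01 and 35.9 in L101P. It had 20.7 and 66.8 CPM in E292V and 16.3 and 18.0 in E690K, so the E690K pair differed little. ABCA3 had 362 and 610 CPM in WT, 1160 and 896 in L101P, 992 and 1030 in E292V, and 890 and 968 in E690K. The epithelial markers KRT8 (3720 to 7720 CPM), KRT18, CDH1 and EPCAM were present in the 10 libraries. The defining alveolar type 2 genes SFTPC, SFTPB, SFTPA1 and NKX2-1 each were at 0 in at least 1 library and reached at most 0.337 CPM. NAPSA, the other gene of that list, had 0.358 to 1.15 CPM. Of the other cell types listed, CD3E was at 0 throughout, and PTPRC, COL1A2 and PDGFRB each reached at most 0.411 CPM. COL1A1 ran from 13.8 to 118 CPM and CD68 from 20.7 to 42.9 CPM.

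KRAB zinc-finger proteins bind DNA through arrays of C2H2 zinc fingers, and their KRAB domain recruits the corepressor TRIM28, also called KAP1. TRIM28 brings in the histone methyltransferase SETDB1 and heterochromatin protein HP1, which place and read trimethylation of lysine 9 on histone H3. Many of these proteins hold transposable elements silent. The genes multiplied by tandem duplication in primates, so neighbours in the 19p12 block share much of their sequence, from promoter to finger array. ZNF91 is known as a repressor of SVA elements and ZNF93 as a repressor of a set of LINE-1 elements. ZNF675 is known as a binding partner of TRAF6 in signalling from tumour necrosis factor family receptors.

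Many members were alike in the bases before their starts. RefSeq windows on GRCh38.p14 were matched by symbol for 27 of the 34 members. The 8 bases TCCAATCA (TGATTGGA on the other strand), which hold the CCAAT core of a common promoter element, were present within the 250 bases before the start in 27 of those 27 genes. In each of these genes a copy was on the gene's own strand, and 14 genes held 2 copies. A second run of 8 bases, TGTCACTC (GAGTGACA on the other strand), was present in 24 of the 27. The runs do not overlap each other, and both were picked after viewing the members' windows, as the 8-base runs most frequent in them relative to all windows. The printed stretches are 130 bases long, read along the gene's strand from 5′ to 3′, with the copies of the runs in capitals. The first set shows the 4 members with the highest mean level per length whose stretch holds both runs.
ZNF714: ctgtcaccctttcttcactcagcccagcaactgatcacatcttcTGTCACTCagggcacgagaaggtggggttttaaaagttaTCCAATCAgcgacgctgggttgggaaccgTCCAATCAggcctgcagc
ZNF254: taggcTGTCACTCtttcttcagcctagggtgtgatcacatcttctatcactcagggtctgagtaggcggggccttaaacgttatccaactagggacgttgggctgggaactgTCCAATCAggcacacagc
ZNF14: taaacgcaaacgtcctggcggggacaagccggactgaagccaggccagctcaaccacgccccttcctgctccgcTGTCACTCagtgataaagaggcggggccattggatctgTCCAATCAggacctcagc
ZNF675: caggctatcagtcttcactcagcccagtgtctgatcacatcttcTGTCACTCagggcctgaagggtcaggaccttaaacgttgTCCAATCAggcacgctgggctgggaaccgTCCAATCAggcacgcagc

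These stretches lie at chr19:21082032-21082161 (plus strand), chr19:24087022-24087151 (plus), chr19:19733149-19733278 (minus) and chr19:23687219-23687348 (minus). The second set shows, for contrast, the 4 members with the lowest mean level per length among the 13 that were not tested and have a RefSeq window. ZNF98, also at 0 throughout, has none.
ZNF626: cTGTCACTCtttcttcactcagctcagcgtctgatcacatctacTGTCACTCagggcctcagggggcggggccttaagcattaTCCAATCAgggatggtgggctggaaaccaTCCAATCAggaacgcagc
ZNF492: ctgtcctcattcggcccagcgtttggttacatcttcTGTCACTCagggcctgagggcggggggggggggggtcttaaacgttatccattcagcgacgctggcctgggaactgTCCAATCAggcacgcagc
ZNF682: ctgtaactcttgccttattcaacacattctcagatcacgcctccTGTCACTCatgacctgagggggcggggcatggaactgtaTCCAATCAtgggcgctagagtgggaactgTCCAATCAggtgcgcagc
ZNF730: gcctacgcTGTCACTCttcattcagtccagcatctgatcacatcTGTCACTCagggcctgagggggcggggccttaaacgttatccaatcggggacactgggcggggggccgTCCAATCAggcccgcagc

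These lie at chr19:20661612-20661741 (minus), chr19:22634159-22634288 (plus), chr19:20039541-20039670 (minus) and chr19:23116860-23116989 (plus). In ZNF714, ZNF675, ZNF626, ZNF682 and ZNF730 the last copy of TGTCACTC and the last copy of TCCAATCA began 68 bases apart, the spacing found in 14 of the 24 members that held both runs. The stretch of ZNF675, a gene with 578 to 966 counts per library, was identical to that of ZNF626, a gene with at most 2 counts, at 82.3% of aligned positions. The expressed pair ZNF675 and ZNF714 reached 80.2%, and ZNF14, at the distal edge of the block, matched the other shown stretches at 52.1% to 55.9%.

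Both runs were found in tested and in untested members alike. TCCAATCA was found in 14 of 14 tested members with a window and in 13 of 13 members that were not tested. TGTCACTC was found in 11 of 14 tested members and 13 of 13 not tested, and the tested genes without it were ZNF101, ZNF43 and ZNF708. Members' windows held TCCAATCA in 96.4% of cases, against 10.6% of windows of other zinc-finger genes of chromosome 19, 6.91% of windows of zinc-finger genes of other chromosomes and 1.45% of all 35116 RefSeq windows. The corresponding shares for TGTCACTC were 85.7%, 5.71%, 4.61% and 1.09%. Both runs were picked for being frequent in the members' windows relative to all windows, so a higher share in the members was fixed by the choice. The bare core CCAAT was in 32.0% of all windows. Median GC content was 56.2% in tested members and 55.2% in the others, and the median number of CpG dinucleotides was 9 and 8, against 58.0% and 11 over all windows. Pairs of tested members matched at a median of 72.2% of positions (at most 91.5%, 91 pairs), and pairs of members not tested at 79.4% (at most 89.4%, 78 pairs). For ZNF254, ZNF730, ZNF43 and ZNF429 the RefSeq start lies more than 1 kb from the GENCODE start, so the window shows an internal start.

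**Figure D1:**
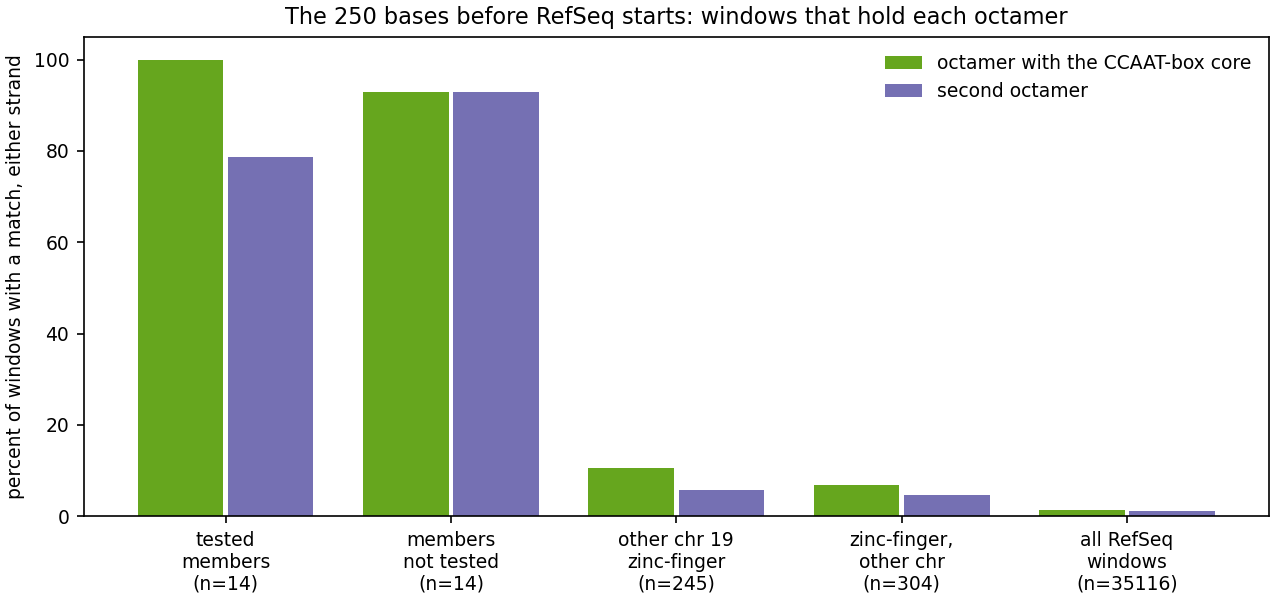
Percent of RefSeq windows (250 bases before the start) that hold TCCAATCA, the run with the CCAAT core, or the second run, TGTCACTC, on either strand; bars are single shares of the windows counted below each group. TCCAATCA is in 14 of 14 windows of tested members and 13 of 14 windows (92.9%) of members not tested, which belong to 13 genes, against 1.45% of all windows. Both runs were picked for being frequent in the members' windows.

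Expression within the block was a mosaic. A group of 9 members, ZNF101, ZNF14, ZNF430, ZNF714, ZNF431, ZNF708, ZNF43, ZNF675 and ZNF254, averaged at least 2 CPM and held 95.6% of the members' counts. Another 7 passed the filter at mean levels of 0.078 to 0.939 CPM: ZNF506, ZNF90, ZNF738, ZNF493, ZNF91, ZNF681 and ZNF726. They held 4.17% of the counts. The 18 members that did not pass held 148 counts over the 10 libraries, or 0.23%, and none of them exceeded 10 counts in a library. They were ZNF253, ZNF93, ZNF682, ZNF486, ZNF737, ZNF626, ZNF66, ZNF85, ZNF429, ZNF100, ZNF208, ZNF257, ZNF676, ZNF98, ZNF492, ZNF99, ZNF728 and ZNF730. The highest counts among them were 10 for ZNF737 in untreated WT and 8 for ZNF66 in untreated E690K. ZNF98 and ZNF730 had 0 counts in the 10 libraries, and 9 of the 18, these included, never had more than 3. A count of 3, taken here as the nominal floor, is worth 0.031 to 0.0505 CPM depending on the library.

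Along the chromosome the 34 members fell into 14 runs of like level. ZNF430, ZNF714, ZNF431 and ZNF708 formed the longest run of expressed neighbours, which spans 309 kb from 21020620 to 21329425 and held 26807 counts. The longest run near 0 followed ZNF43: 8 neighbours from ZNF208 to ZNF730 span 1210 kb, from 21932958 to 23147219, and together had 26 counts, with at most 4 in any library. A further such run of 5 members from ZNF486 to ZNF85 spans 783 kb. ZNF254, the member nearest the centromere, was again among the 9. Of 39 other annotated genes between the first and the last member, 6 passed the filter, among them the zinc-finger gene ZNF724, at 50 to 167 counts. Several members overlap another annotated gene. Only AC092279.1, which lies on the same strand as ZNF254 and within its span, exceeded 4 counts in a library, at a mean of 5.34 CPM. Of all 50-base runs in the annotated transcripts of ZNF254, 2.89% also occurred in those of AC092279.1. Some counts of ZNF254 are thus uncertain, to an extent that was not measured.

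**Figure D2:**
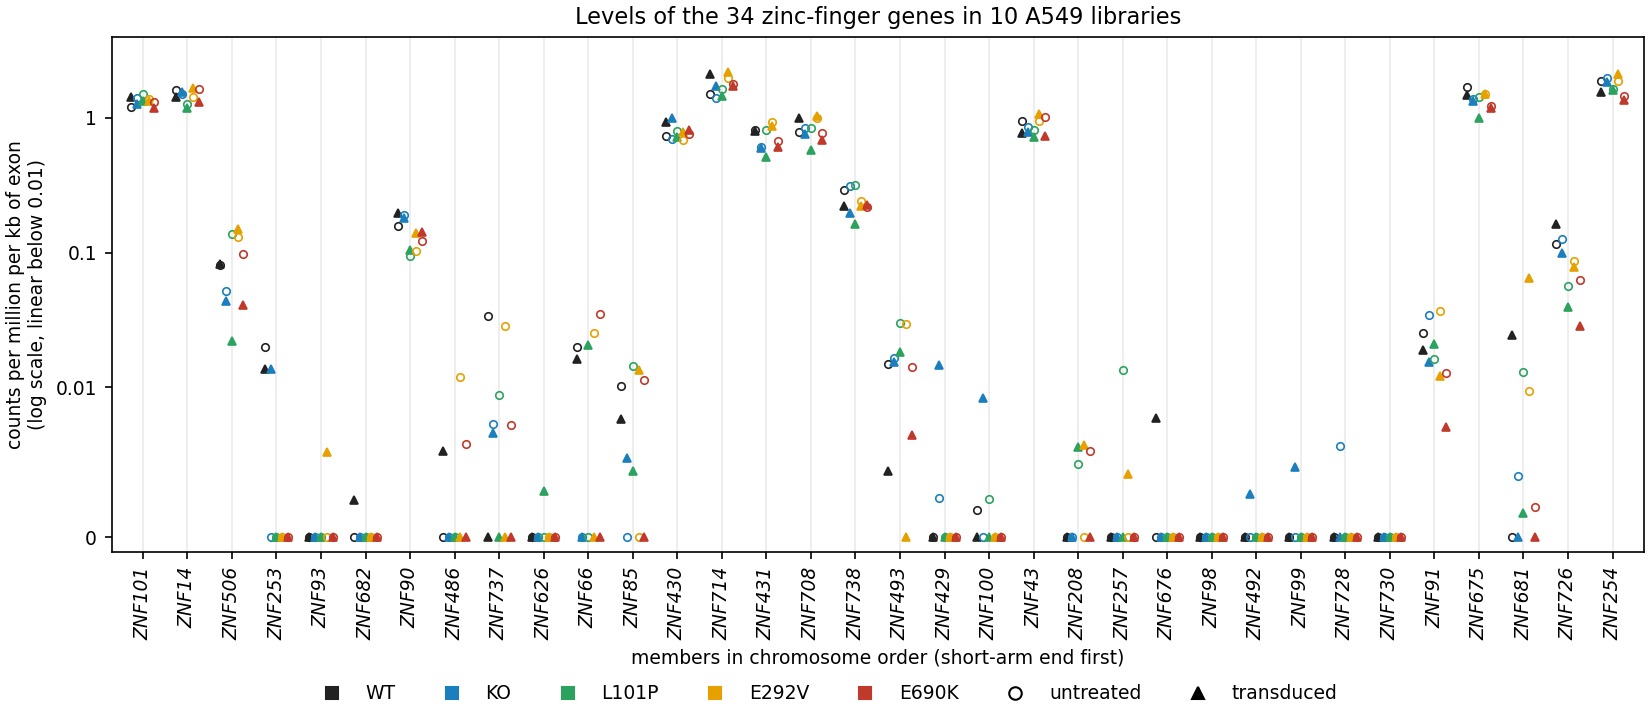
Level of each member in CPM per kilobase of exon (log scale, linear below 0.01) for the 34 members in chromosome order, short-arm end first; colours stand for the lines, open circles for untreated and triangles for transduced libraries. The 9 expressed members sit at means of 0.726 to 1.75, and the 8 members from ZNF208 to ZNF730 sit near 0 in the 10 libraries.

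Per length, the highest mean levels were those of ZNF714, at 1.75 CPM per kb of exon, and ZNF254, at 1.73, which differ by less than their own spread over libraries. ZNF431, at 0.726 CPM per kb, was the lowest of the 9. The summed level of the 9 was 63.7 to 88.9 CPM over the 10 libraries. ZNF91, the SVA repressor, had 6 to 30 counts per library, or 0.0768 to 0.38 CPM. ZNF93, the LINE-1 repressor, had 3 counts in the transduced E292V library and 0 in the other 9. ZNF85 had 4 and 3 counts in WT (untreated first), 0 and 2 in KO, 4 and 2 in L101P, 0 and 6 in E292V, and 4 and 0 in E690K. Near-identical copies can split or lose reads, and how shared reads were counted is not given in the sources used here. Of all 50-base runs in a member's annotated transcripts, a median of 96.3% in tested members and 93.5% in members not tested occurred in no other gene's transcripts. The least distinct were ZNF98 (59%, with 37.6% of its runs shared with ZNF492) and ZNF492 (66.1%), so the 0 counts of ZNF98 and the 1 count of ZNF492 are uncertain. ZNF90 (78.9%), ZNF208 (86.2%) and ZNF726 (89.2%) followed.

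The share of expressed genes was also taken in other groups of genes. Of the members 47.1% passed the filter and 26.5% averaged at least 2 CPM. Of 217 other zinc-finger genes of chromosome 19, 82.0% passed and 63.6% averaged at least 2 CPM, and of 275 zinc-finger genes of other chromosomes the shares were 89.1% and 79.3%. All protein-coding genes gave 74.2% and 58.3%. These shares describe the 10 libraries, and neighbours that arose by duplication are not independent, so they were not tested. Because bulk RNA was sequenced, a low level cannot be told apart as fewer cells with the RNA or as less RNA per cell.

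In E690K against WT, the fitted log2 differences of the 16 tested members had a median of -0.23, with 12 members lower and 4 higher. Over all 17978 genes tested the median was -0.02. The value differed with level: the 9 members with a mean of at least 2 CPM had a fitted median of -0.03, with 0.06 in the untreated and -0.20 in the transduced pair, and the low-count members ZNF681, ZNF726 and ZNF91 had the lowest fitted values of the 16. The difference was not the same in the 2 pairs of libraries. In the untreated pair the median was -0.0024, with 8 of 16 members lower, and in the transduced pair it was -0.24, with 14 of 16 lower. In 6 of 16 members (37.5%) both E690K libraries lay below both WT libraries, where 27.4% of all genes tested did. In 0 of 16 did both lie above, where 23.8% of all genes did. The members' median thus lay below WT in the transduced pair and near WT in the untreated pair.

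The 6 members lower in both pairs were ZNF726, ZNF91, ZNF90, ZNF675, ZNF431 and ZNF254. Levels below are in CPM, untreated first and transduced second. ZNF675 had 11.6 and 9.99 CPM in WT, 9.32 and 9.1 in KO, 9.73 and 6.75 in L101P, 10.1 and 10.1 in E292V, and 8.36 and 8.07 in E690K. Both E690K libraries lay below both WT libraries, and the lowest library of the 10 was the transduced L101P library. The fitted E690K difference was -0.34 (SE 0.15) on the log2 scale. ZNF431 had 11.5 and 11.4 CPM in WT, 8.6 and 8.46 in KO, 11.5 and 7.25 in L101P, 13.2 and 12.4 in E292V, and 9.6 and 8.65 in E690K. E690K was below WT, but KO was lower still, and E292V held the highest libraries. The fitted E690K difference of ZNF431 was -0.28 (SE 0.159). ZNF254 had 14.2 and 11.7 CPM in WT, 14.9 and 14.1 in KO, 12.3 and 12.2 in L101P, 14.2 and 16 in E292V, and 11.1 and 10.3 in E690K. For ZNF254 the E690K libraries were the lowest of the 10, at a fitted difference of -0.22 (SE 0.131) from WT and -0.35 (SE 0.109) from the mean of the other 3 lines.

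The other 3 of the 6 were at low counts. ZNF726 had 0.73 and 1.03 CPM in WT, 0.8 and 0.628 in KO, 0.353 and 0.248 in L101P, 0.545 and 0.495 in E292V, and 0.397 and 0.179 in E690K. WT and KO were high and L101P and E690K were low, with 14 counts in the lowest library and 84 in the highest. The fitted difference of ZNF726 was -1.63 (SE 0.552) in E690K and -1.56 (SE 0.548) in L101P. ZNF90 had 0.79 and 0.985 CPM in WT, 0.947 and 0.899 in KO, 0.471 and 0.527 in L101P, 0.52 and 0.696 in E292V, and 0.608 and 0.717 in E690K. Here E690K lay between WT and L101P, at -0.37 (SE 0.413). ZNF91 had 0.263 and 0.197 CPM in WT, 0.36 and 0.16 in KO, 0.168 and 0.217 in L101P, 0.38 and 0.127 in E292V, and 0.132 and 0.0768 in E690K. The 10 and 6 counts behind the E690K values of ZNF91 allow 0.0565 to 0.309 CPM and 0.0261 to 0.226 CPM (95% Wilson intervals on read pairs, counting error only), and each range includes the WT value of the same treatment.

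The 4 members with the smallest fitted E690K difference were among the 9 expressed ones. ZNF14 had 4.76 and 4.18 CPM in WT, 4.46 and 4.58 in KO, 3.73 and 3.47 in L101P, 4.24 and 4.93 in E292V, and 4.84 and 3.87 in E690K. ZNF714 had 12.1 and 16.9 CPM in WT, 11.3 and 13.9 in KO, 13.2 and 11.6 in L101P, 15.8 and 17.7 in E292V, and 14.2 and 13.8 in E690K. For both genes the E690K and WT libraries overlapped. ZNF430 had 5.04 and 6.39 CPM in WT, 4.78 and 6.87 in KO, 5.5 and 4.9 in L101P, 4.73 and 5.4 in E292V, and 5.21 and 5.55 in E690K. ZNF101 had 7.92 and 9.3 CPM in WT, 9.19 and 8.35 in KO, 9.79 and 8.74 in L101P, 9.08 and 8.71 in E292V, and 8.57 and 7.75 in E690K. The fitted E690K differences of these 4 genes lay between -0.03 and 0.02. ZNF43 had 8.23 and 6.63 CPM in WT, 7.42 and 6.82 in KO, 7.08 and 6.24 in L101P, 8.27 and 9.2 in E292V, and 8.75 and 6.31 in E690K. Its E690K libraries lay on both sides of the WT libraries, and the fitted difference was 0.06 (SE 0.166).

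**Figure D3:**
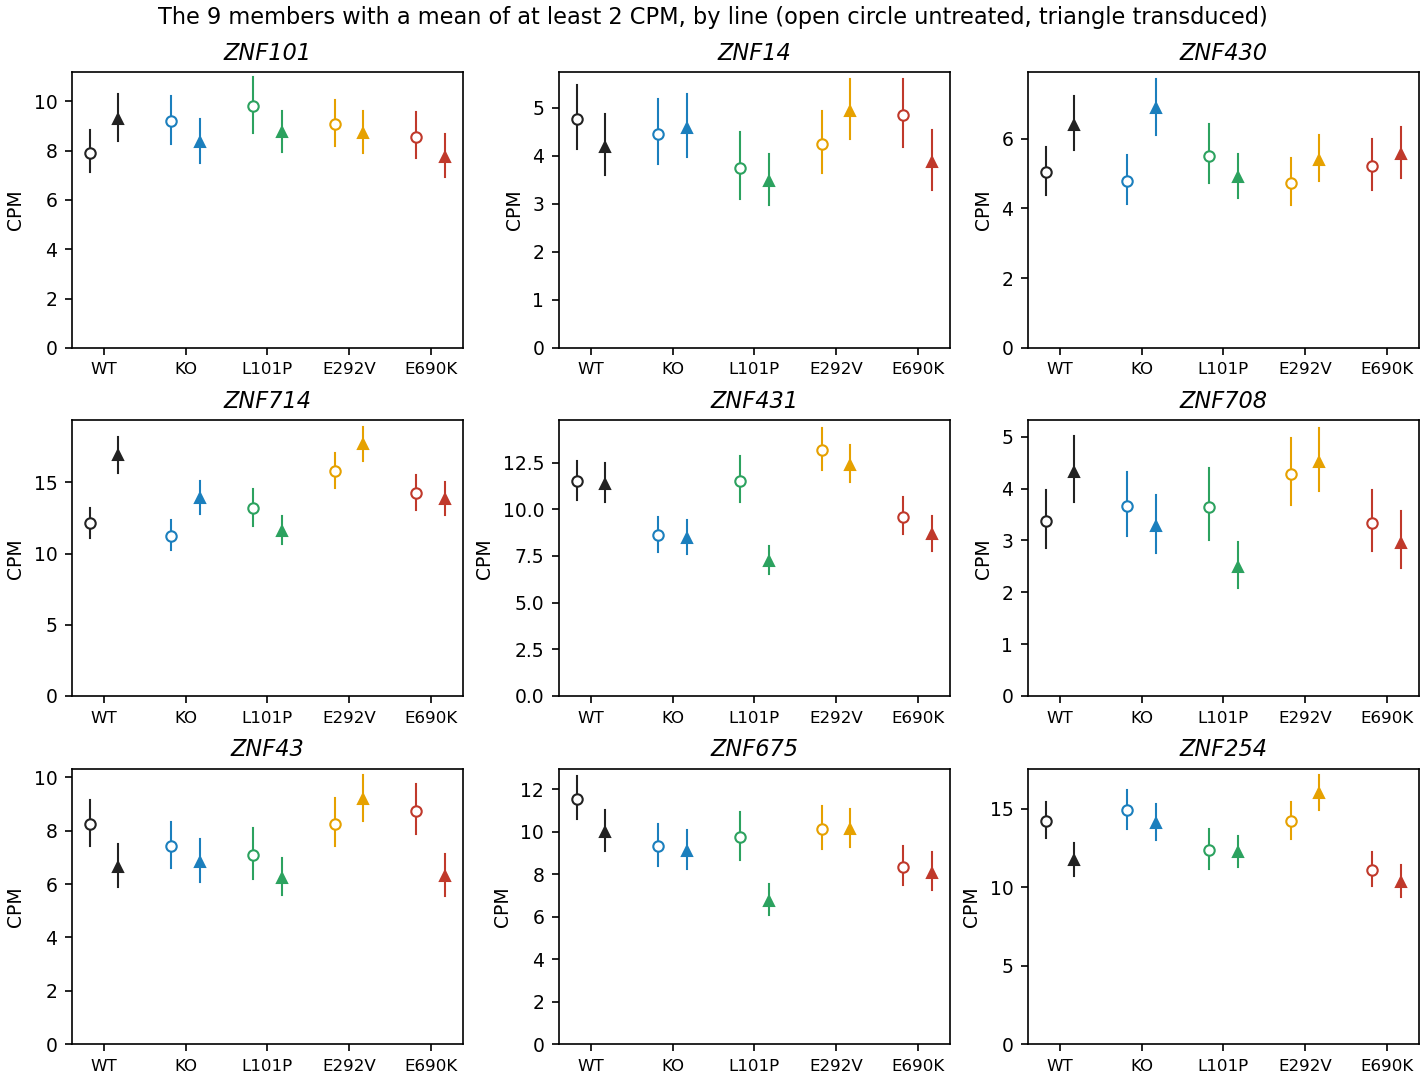
CPM of the 9 members with a mean of at least 2 CPM, 1 panel each, by line; open circles are untreated and triangles transduced libraries, and bars are 95% Wilson intervals on read pairs, which cover counting error only. ZNF254, ZNF431 and ZNF675 show both E690K libraries below both WT libraries. ZNF14, ZNF431, ZNF708, ZNF43 and ZNF675 have their lowest value in the transduced L101P library.

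The remaining 5 tested members gave fitted E690K differences of -3.02 (ZNF681), -0.31 (ZNF506), -0.24 (ZNF708), -0.13 (ZNF738) and 0.29 (ZNF493), none with the same sign in both pairs. ZNF681 had 0 to 40 counts per library and was at 0 in untreated WT, so its large value rests on few reads (SE 2.34). ZNF506 ran from 0.186 CPM in transduced L101P to 1.26 CPM in transduced E292V, ZNF738 from 0.64 to 1.25 CPM, ZNF493 from 0 to 0.336 CPM and ZNF708 from 2.48 to 4.5 CPM. ZNF708, ZNF738 and ZNF506 each had their lowest value in the transduced L101P library. Set against the mean of KO, L101P and E292V in place of WT, the members' median E690K difference was -0.12, with 11 of 16 lower.

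In the 3 other lines, where the choice of members did not use the contrast, no member passed the test. In KO against WT 0 of 16 members were called, where 1.8% of all genes tested were, and the smallest adjusted p among the members was 0.275 (edgeR's quasi-likelihood test). That p belonged to ZNF431, at -0.40 (SE 0.159), the 1 member with an unadjusted p under 0.05, as had 14.1% of all genes tested. In L101P 0 of 16 were called, where 3.94% of all genes were, with a smallest adjusted p of 0.146. ZNF726 and ZNF675, at -1.56 and -0.36 (SE 0.15), had an unadjusted p under 0.05, as had 18.3% of all genes. In E292V 0 of 16 were called, where 1.05% of all genes were, with a smallest adjusted p of 0.653 and 0 members at an unadjusted p under 0.05, where 10.3% of all genes were. DESeq2's Wald test called 0 members in each of the 3, and 740, 1227 and 429 genes in all. The members' medians were -0.02 in KO, -0.22 in L101P and 0.09 in E292V, where those of all genes tested lay between -0.01 and 0.00. Under the alternatives the KO median ran from -0.02 to 0.0079 and the E292V median from -0.04 (no filter) to 0.12, so neither kept its sign, and the L101P median was -0.14 without the KO pair. These contrasts share the WT libraries with each other and with E690K.

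The 2 pairs also differed in other lines. In the untreated L101P pair the members' median was 0.07, with 7 of 16 lower than WT, and in the transduced pair it was -0.42, with 13 of 16 lower. In KO the medians were 0.10, with 7 lower, and -0.13, with 11 lower. In E292V they were 0.09, with 8 lower, and 0.04, with 6 lower. The transduced pairs of the 4 lines share 1 transduced WT library, and the untreated pairs 1 untreated WT library. Over all genes tested the medians of these pairs lay between -0.02 and 0.00. Both L101P libraries lay below both WT libraries in 4 of 16 members (23.3% of all genes) and above in 1 of 16 (20.4% of all genes). For KO these counts were 3 and 2 (23.7% and 22.0% of all genes), and for E292V 2 and 2 (20.3% and 18.9% of all genes). The summed level of the 34 members was 82.8 and 85.0 CPM in WT, 77.6 and 78.7 in KO, 80.6 and 65.8 in L101P, 88.0 and 92.9 in E292V, and 77.2 and 69.6 in E690K. The transduced L101P library, the deepest of the 10, had the lowest sum, and the transduced E690K library the next lowest. E292V had the highest sums of the 5 lines in both treatments.

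**Figure D4:**
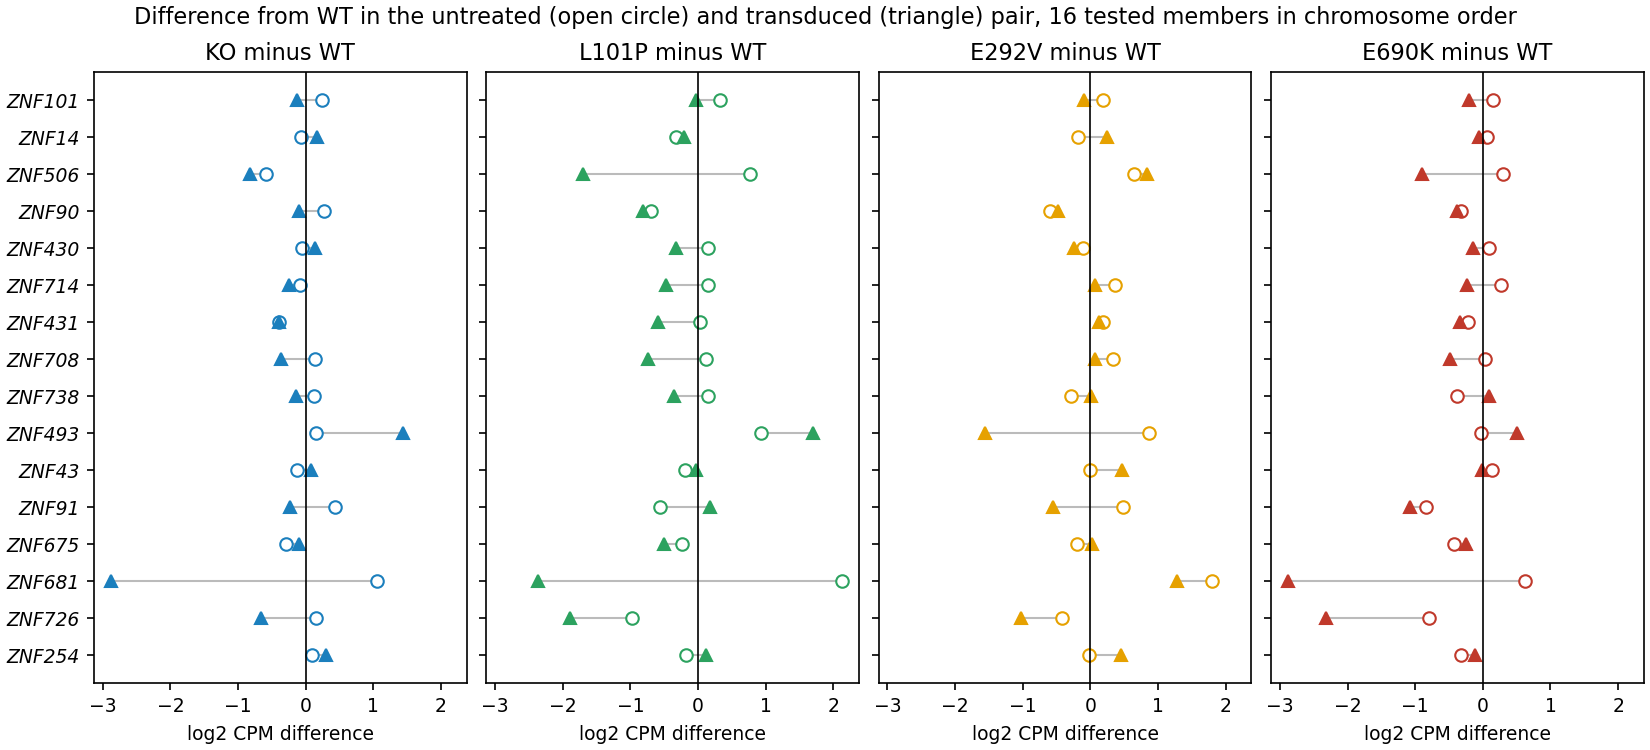
Difference of each line from WT in log2 CPM (prior count of 2) for the 16 tested members in chromosome order; open circles are the untreated and triangles the transduced pair, joined by a line. In E690K 8 of 16 untreated and 14 of 16 transduced differences lie below 0, and members with few counts (ZNF681, ZNF726, ZNF506) have its widest gaps between pairs.

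The vector effect was taken over the 5 lines as replicates. Of the 16 members 0 were called, as were 0.0% of all genes tested; the smallest adjusted p among the members was 0.782, and 0 members had an unadjusted p under 0.05 (edgeR's quasi-likelihood test). Over all genes 1236 had an unadjusted p under 0.05. DESeq2's Wald test called 0 members too, and 118 genes in all. The members' median was -0.10, with 12 lower and 4 higher. It was -0.05 without the L101P pair, -0.06 without the E690K pair, -0.19 without the E292V pair and -0.05 with no filter. By line, transduced members were lower than untreated in 13 of 16 cases in KO, L101P and E690K, in 8 of 16 in WT and in 6 of 16 in E292V. Over all 17978 genes tested, 9059 were lower in KO, 8704 in L101P, 8823 in E690K, 8847 in WT and 8903 in E292V. Of the 16, ZNF431 and ZNF493 were lower in all 5 lines and 0 were higher in all 5, and of the 17978 genes tested 639 were lower and 771 higher in all 5. The change of ZNF431 was -0.01 in both WT and KO. ZNF493 had 0 to 26 counts per library. It had 14 counts in both KO libraries and 20 in both L101P libraries, so its change in these lines came from scaling alone. These changes compare single libraries. The KO pair's direction depends on labels that its ABCA3 and EGFP levels go against. In the other lines the untreated libraries were not free of EGFP counts. In E690K EGFP was 16.3 CPM untreated and 18.0 CPM transduced.

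The members were then set beside genes around them and genes like them. The 30 nearest tested genes before the block, from 18588685 to 19663693, had a median E690K difference of -0.10, against -0.23 in the block. The 30 after it had -0.08. These lie from 27638483 to 33225850, where the last member ends at 24129961, so they are not close neighbours. The genes before and after the block had medians of -0.1145 and -0.115 in KO and -0.083 and -0.091 in L101P. In E292V they had -0.0043 and -0.028. The other protein-coding genes of chromosome 19 had medians of -0.09 in E690K, -0.07 in KO, -0.06 in L101P and -0.04 in E292V. The 6 tested genes inside the block that are no members had a median of -0.32, with 5 of 6 lower, and of -0.51 in the untreated and 0.04 in the transduced pair. Other zinc-finger genes of chromosome 19 had a median of -0.25, with 142 of 178 lower, and the 2 pairs were alike (-0.22 untreated and -0.24 transduced). Zinc-finger genes of other chromosomes had a median of -0.08. In L101P the other zinc-finger genes of chromosome 19 had a median of -0.25, close to the members' -0.22. In KO and E292V they had -0.09 and -0.07, where the members had -0.02 and 0.09. The fitted medians of the 16 members in E690K and L101P were thus close to those of the chromosome's other zinc-finger genes, which include ZNF724 inside the block. In the untreated E690K pair the medians were not close, at -0.0024 in the members and -0.22 in the other genes. The 9 members with a mean of at least 2 CPM had fitted medians of -0.03 in E690K and -0.18 in L101P. Levels differed between the groups: 63.6% of the chromosome's other zinc-finger genes averaged at least 2 CPM, against 26.5% of the members. The windows that had looked shifted in E690K may reach beyond the members. The chromosome's other zinc-finger genes may thus hold some noted for their E690K values, and are no independent comparison.

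**Figure D5:**
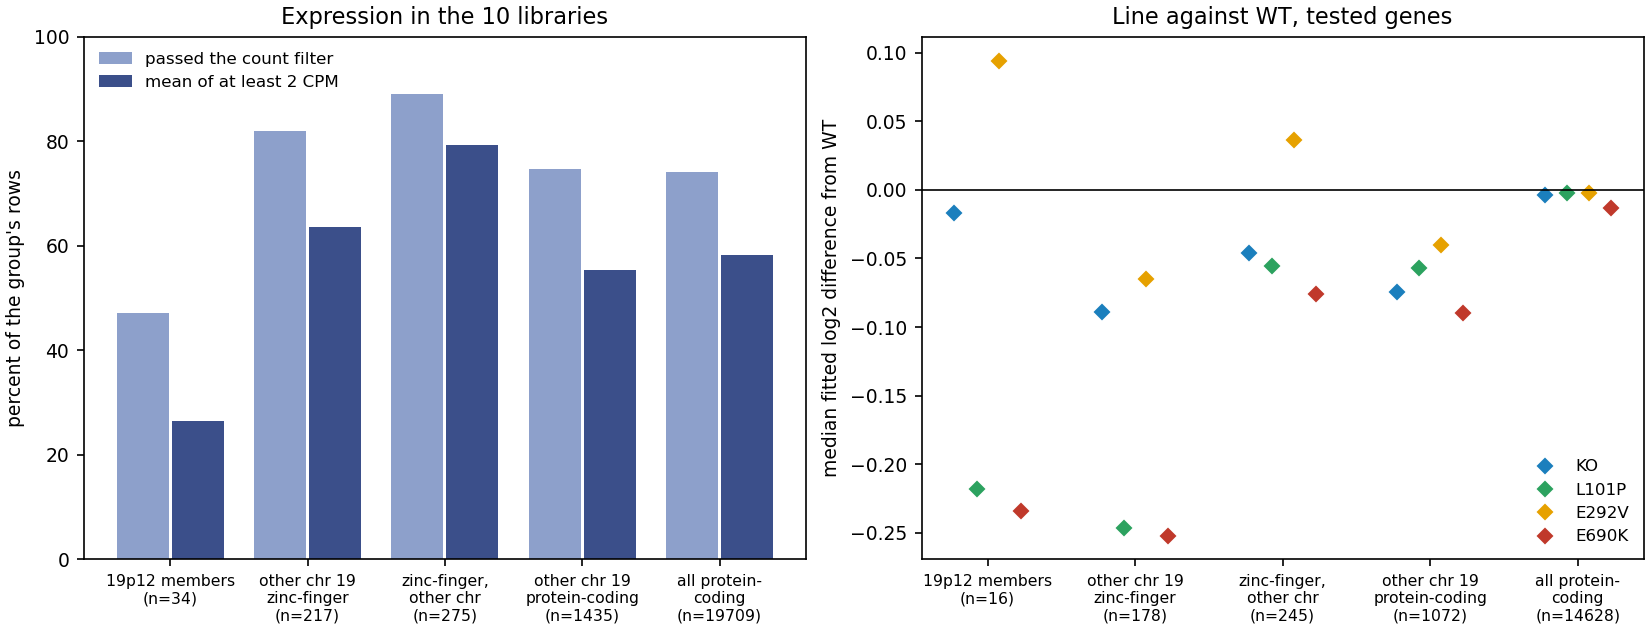
Left, percent of each gene group's rows that passed the count filter and that averaged at least 2 CPM. Right, median fitted log2 difference of each line from WT over the group's tested genes, with the number of genes below each name. The E690K and L101P medians were -0.23 and -0.22 in the members, and -0.25 and -0.25 in the other zinc-finger genes of chromosome 19. The 9 members with a mean of at least 2 CPM, not drawn apart, had an E690K median of -0.03. No error is drawn because genes of a group are not replicates.

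RNA of the genes listed for KRAB repression and related chromatin control, called the machinery here, was present in the 10 libraries. All 31 listed genes of this machinery averaged at least 2 CPM. TRIM28, the corepressor, had 971 and 963 CPM in WT, 949 and 916 in KO, 1040 and 894 in L101P, 1000 and 955 in E292V, and 1000 and 1060 in E690K. SETDB1, the methyltransferase, had 44.9 and 45.6 CPM in WT, 42.5 and 42.3 in KO, 41.6 and 39.3 in L101P, 53.3 and 44.3 in E292V, and 42.3 and 42.8 in E690K. Neither was called in any contrast tested. In the vector effect and in KO 0 of 31 were called, where 0.0% and 1.8% of all genes tested were. In L101P 1 of 31 was called lower and in E292V 1 of 31 lower. Over all genes tested 3.94% were called in L101P and 1.05% in E292V, in either direction. The gene lower in L101P was ZNF274, a KRAB zinc-finger gene of chromosome 19 known to recruit SETDB1 to the ends of other zinc-finger genes. It had 29.8 and 28.6 CPM in WT and 21.2 and 13.6 in L101P, a log2 fold change of -0.73 (SE 0.139, adjusted p = 0.0142 by edgeR's quasi-likelihood test). ZNF274 had 22.1 and 21.7 CPM in KO, 37.8 and 35.0 in E292V, and 18.3 and 19 in E690K. Its lowest library was transduced L101P and its highest line E292V, as for the members' summed level. Whether this level has a part in the members' values was not tested. The gene lower in E292V was SUV39H1, another methyltransferase of lysine 9 of histone H3. It had 29.2 and 29.6 CPM in E292V, 42.3 and 44.1 in WT, 43.3 and 45 in KO, 44.5 and 45.1 in L101P, and 43.3 and 49.6 in E690K. The E292V libraries were thus the lowest of the 10, at -0.56 against WT (SE 0.0852, adjusted p = 0.00994). The median difference of the 31 genes was 0.01 with the vector and in KO and 0.03 in L101P and E292V.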

How the data were processed

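RNA was taken from lifted A549 cells and made into total-RNA libraries, per the labels' protocols. The authors deposited whole-number counts per gene. The submitters' processing notes name featureCounts, Subread, edgeR, limma and GRCh38; versions, annotation release, strand use and the handling of shared reads are not given in the sources used here. Of the row names, 98.6% matched 1 symbol of GENCODE 29. Between 80.6% and 82.7% of values from 1 to 10 were even, as when both mates are counted, so 95% Wilson intervals use counts divided by 2.

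Genes were kept by filterByExpr (17978) and scaled by TMM (factors 0.972 to 1.03) in edgeR 4.0.16 (R 4.3.3). The 10 libraries entered an additive model of line plus vector (4 residual degrees of freedom), tested by quasi-likelihood with Benjamini-Hochberg adjustment over all genes at 0.05. Line is a block in the vector effect, since a pair comes from 1 line. The standard error is the log2 fold change divided by the square root of F. Single pairs use log2 CPM with a prior count of 2. The script was tested on simulated data. Alternatives were DESeq2 1.42.0, other filters and scalings, read pairs, exchanged KO labels and lines left out.

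The members and lists were chosen with earlier results of these data known. Named with every library's value were, of the tested members, those with the largest E690K difference of the same sign in both pairs (6 qualified of up to 10), the 4 with the smallest, any called in another contrast (0), and ZNF91, ZNF93, ZNF43, ZNF85, ZNF675 and ZNF431; of the machinery, TRIM28, SETDB1 and any called gene. Promoter windows are RefSeq's, gene positions GENCODE's.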

Additional observations from a re-analysis of the deposited data

Results flagged for a closer look

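For each tested member the changes with the vector in the 5 lines were examined for a single line far from the rest, which chance gives in about 1 of 20 such sets. Of 16 sets, 2 held one. ZNF431 changed by -0.62 (log2 CPM) with the vector in L101P, where the other 4 lines lay between -0.13 and -0.01, a gap of 0.807 of the whole range against a critical share of 0.71. ZNF101 changed by 0.24 with the vector in WT, where the other 4 lines lay between -0.12 and -0.04, a gap of 0.762 of the range. Both values compare 2 single libraries.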

How the results depend on the processing

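In the vector effect and in KO, L101P and E292V against WT, 0 members were called under the main settings and under each alternative run: DESeq2's size factors, no filter, at least 10 counts in every library, read pairs, exchanged KO labels, DESeq2's Wald test, each pair left out in turn and, for the vector effect, no replicate block (0 of 15 members). The smallest adjusted p came closest to the threshold in KO without the L101P pair, at 0.0754. The members' median E690K difference from WT of -0.23 was -0.0024 in the untreated pair alone, and -0.21 to -0.22 with a line left out. The median against the mean of KO, L101P and E292V, -0.12, was -0.20 with no filter, -0.16 in the untreated pair alone, and -0.024 (without the E292V pair) to -0.17 (without the L101P pair) with a line left out. The cause of these changes was not tested. The calls of ZNF274 in L101P and SUV39H1 in E292V held under each alternative run, added after seeing the data, with adjusted p up to 0.0329 and 0.0412. Depth limits the 7 low members and the 18 not tested: 3 counts are worth 0.031 to 0.0505 CPM.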
